A study of Arabidopsis thaliana with 8 samples.

Results

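The genotype comparison without added brassinosteroid (BR) rested on 4 of the 8 arrays of the series, those hybridized with RNA of mock-treated seedlings, 2 of wild type (WT) and 2 of the auxin-overproducing mutant *yucca*. It was read over 22746 probe sets, the probe groups that each stand for a transcript on the Affymetrix ATH1 array, of which 13995 could be assigned to a single named gene. WT was Columbia (Col-0), and both genotypes were grown in the light, were 10 d old by the sample labels (1 d younger in the paper's methods) and stood in diluted Murashige minimal organics medium for 2.5 h. The other 4 arrays held seedlings of the same genotypes in the same medium with 1 μM brassinolide (BL), the most active BR, and entered the normalization, the estimate of the spread and a comparison at the end. *yucca* is a dominant mutant that overproduces auxin throughout life, so the comparison concerns a lasting change and not the early response to applied hormone, and the labels name a single mutant line.

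Auxin moves transcripts of several gene families within minutes in *Arabidopsis*. Aux/IAA proteins repress auxin-responsive promoters until the hormone has them degraded, GH3 enzymes join auxin to amino acids and so lower its level, and SAUR proteins promote cell expansion. YUCCA proteins are flavin monooxygenases of auxin synthesis, and the *yucca* mutant owes its auxin to high expression of one of them. The probe set of that gene was not assigned to a name here, so the genotype could not be checked at the mutated locus. Of other *YUCCA* genes, *YUC2*, *YUC3*, *YUC4* and *YUC6* were measured and none was called different.

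The deposited intensities differed between the genotypes as a whole. Their median on an array was 89.62 and 90.03 for WT without BL but 46.37 and 44.67 for *yucca* without BL, and no probe set had an equal value on arrays of different genotypes, whereas 29 did on the WT mock pair and 61 on the *yucca* mock pair. Each genotype had therefore been normalized in a run of its own, and a difference between genotypes and a difference between runs cannot be told apart. The arrays were brought to a common distribution here, and all levels below are normalized intensities in arbitrary units. On this scale the Pearson r between replicate arrays, on the log2 scale, was 0.998 for WT mock and 0.994 for *yucca* mock.

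Of the 22746 probe sets, 1948 (8.56%) were higher and 2000 (8.79%) were lower in *yucca* than in WT, together 17.4%. A probe set was counted here by limma when its adjusted p lay below 0.10 and B, the log odds of a difference, above 0. The difference was at least 2-fold for 880 of those higher and 845 of those lower, and at least 4-fold for 199 and 128. Without WT mock replicate 1 the counts fell to 1137 higher and 1055 lower, and without WT mock replicate 2 to 1158 and 1154. The split depended on the scale between genotypes: 49.3% of the calls were higher after quantile normalization, 60% (2448 higher and 1631 lower) when only the medians of the arrays were set equal, and 1.7% (265 higher and 15356 lower) on the values as deposited. The median log2 difference over all probe sets was −0.01, 0.11 and −0.87 on these scales, in that order, and the differences below are those after quantile normalization. The lists given a direction below kept the sign of their median relative to that of all probe sets when quantile normalization was left out.

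**Figure D1:**
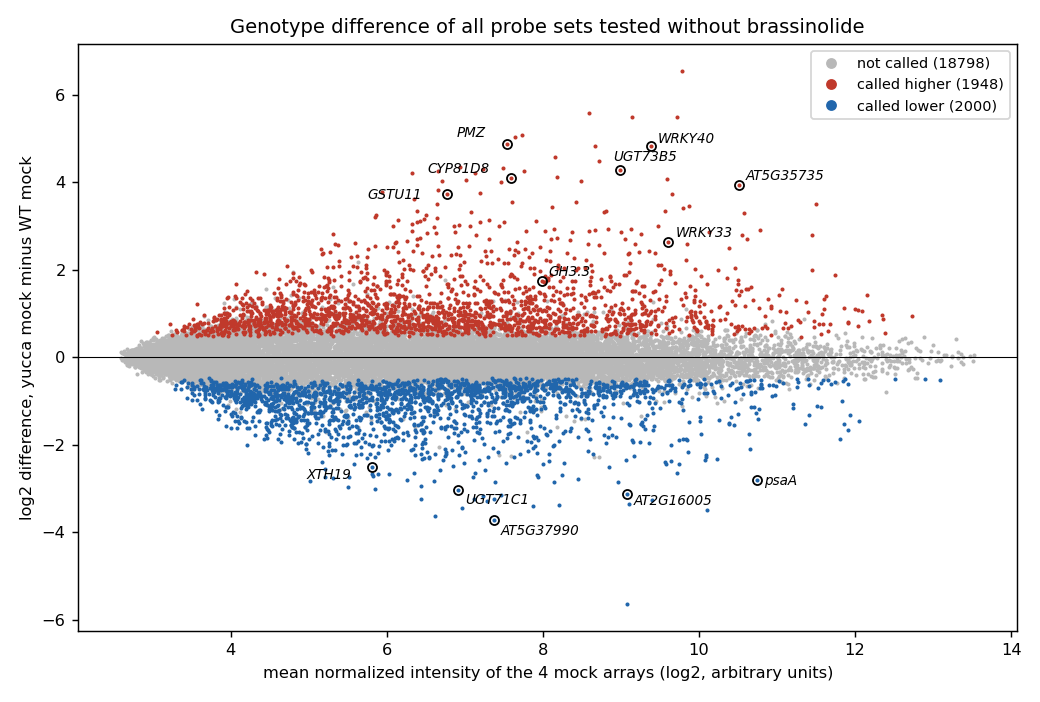
Mean normalized intensity of the 4 mock arrays (log2, arbitrary units) against the log2 difference, *yucca* mock minus WT mock, for 22746 probe sets, with 1948 called higher in red, 2000 called lower in blue and a few named genes circled. The calls lie on both sides of 0, and among named genes *PMZ* and *WRKY40* reached the top and AT5G37990 the bottom.

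Among called probe sets of a single named gene with a mean of at least 100 in the higher genotype, the 12 with the largest rise included stress and detoxification genes. Several others are named here only by their locus. An unnamed probe set rose further than any of them (6.56 on the log2 scale). *PMZ*, which encodes the zinc finger protein SAP12 of the stress-associated family, measured 11.8 and 12.6 in WT and 355 and 368 in *yucca*. Both *yucca* arrays stood far above both WT arrays, and the log2 difference was 4.88 ± 0.24 (SE; adjusted p = 2.45e-06). The gene of the transcription factor WRKY40 followed, with 46.3 and 44.6 in WT against 1317 and 1262 in *yucca* (4.83 ± 0.27, adjusted p = 3.42e-06). AT1G56300 (4.33), the glycosyltransferase gene *UGT73B5* (4.29), the cytochrome P450 gene *CYP81D8* (4.10), AT1G72900 (4.04), which carries the description virus resistance protein, and AT1G66090 (4.01) were each higher by more than 4 on the log2 scale. AT5G35735 measured 177 and 180 in WT and reached 2770 and 2706 in *yucca* (3.94 ± 0.19, adjusted p = 2.35e-06). AT1G54050 (3.76), *GSTU11* (3.73), AT5G48570 (3.55), an immunophilin gene also named *FKBP65*, and *DIC2* (3.55), for a dicarboxylate carrier of the mitochondrial membrane, completed these 12 genes. In none of the 12 did the arrays of the 2 genotypes overlap, though this alone is a weak criterion with 2 arrays each. Of all probe sets, 35.2% had both *yucca* arrays above both WT arrays, 37.7% had both below, and 72.9% did not overlap. These shares apply wherever arrays are said below not to overlap.

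Among the 12 genes that fell furthest under the same limits, most have only a locus and no described function in the annotation used here. AT5G37990 dropped from 293 and 322 in WT to 29.5 and 18.2 in *yucca* (log2 difference −3.73 ± 0.21, adjusted p = 4.26e-06). AT2G16005 fell from 944 and 988 in WT to 126 and 96.5 in *yucca* (−3.13 ± 0.14, adjusted p = 1.95e-06). Both *yucca* arrays again lay below both WT arrays, as for all 12. The others were AT1G50060 (−3.44), AT5G54370 (−3.39), AT2G47550 (−3.25), AT5G66985 (−3.24), AT1G14960 (−3.18), AT1G52070 (−3.15), AT3G28270 (−2.85), AT3G26440 (−2.80), the glycosyltransferase gene *UGT71C1* (−3.03) and *psaA* (−2.80), a gene of the chloroplast genome. Probe sets with no single gene named were left unnamed, and they held 83 of the 199 at least 4-fold rises and 51 of the 128 at least 4-fold falls.

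The genes were next grouped by function in 79 lists that held 921 genes, of which 131 were higher and 132 lower. Of these genes, 257 could be named only through the paper's tables of hormone-responsive transcripts, which were chosen in part on arrays of this series, so the direction of a list that leans on them is not independent evidence. Probe sets at low level were called less often: 5.44% of those with a mean under 25 in both genotypes, against 20.8% to 25.6% in the higher classes of intensity. At an unadjusted p under 0.05 (limma), 5797 of all 22746 probe sets were higher and 6209 lower. List counts at that limit are to be read against this large background. Counts of called members are to be read against the 17.4% called over all probe sets and the shares by intensity. A gene could stand in several lists.

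**Figure D2:**
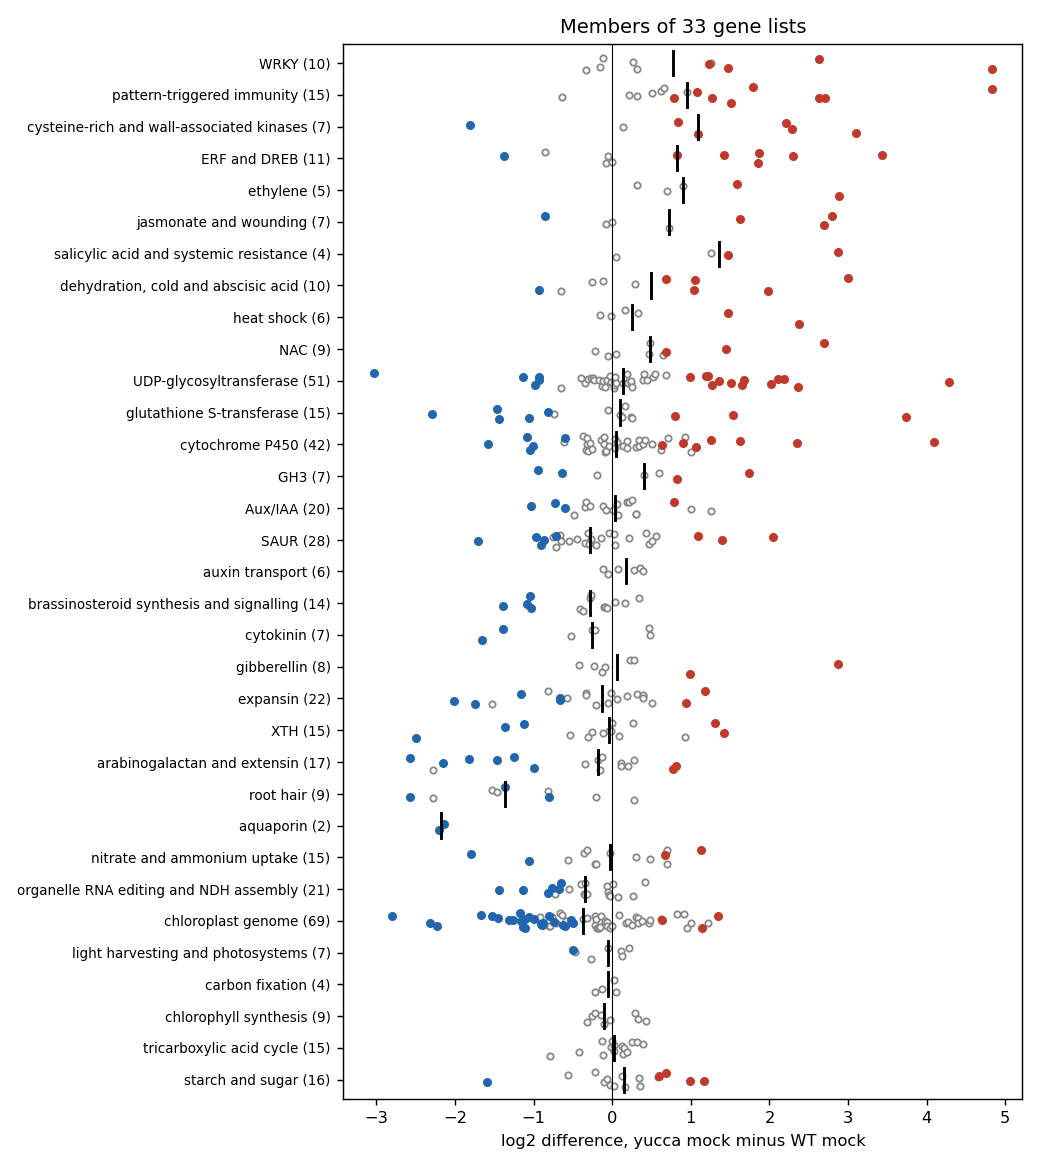
Log2 difference, *yucca* mock minus WT mock, of each measured member of 33 gene lists (number of members in parentheses), with called members in red or blue, other members as open circles and the median as a black bar. Several lists of defence and stress genes extend to the right, and the root hair and aquaporin lists lie to the left. Carbon fixation, chlorophyll synthesis, auxin transport and the tricarboxylic acid cycle hold no called member.

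Transcripts of part of the defence machinery were high in *yucca*. Other defence lists did not have a high median log2 difference. It was 0.05 for antimicrobial peptides and chitinases, −0.01 for β-glucosidases, −0.08 for jacalin-related lectins and −0.17 for camalexin and indole glucosinolates. Plants sense microbes through receptor kinases at the cell surface, whose signal runs through calcium and protein kinases to WRKY and ERF transcription factors. In the list of pattern-triggered immunity, 8 of 15 members were higher and none was lower by limma (at an unadjusted p under 0.05, 12 were higher and 1 lower), with a median log2 difference of 0.96 against −0.01 over all probe sets. Of its members, 8 were named only through the paper's tables. The count was 7 without any one of the mock arrays.

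*WRKY33*, which governs synthesis of the phytoalexin camalexin, measured 220 and 214 in WT and 1438 and 1254 in *yucca* (log2 difference 2.63 ± 0.20, adjusted p = 1.62e-05). *ZAT10*, the gene of a zinc finger repressor of stress responses, measured 147 and 135 in WT against 998 and 852 (2.71 ± 0.25, adjusted p = 4.51e-05). Neither gene showed overlap between the genotypes, as was so for 72.9% of all probe sets. *WRKY18* (1.47), *SZF2* (1.79), *SYP121* (1.51), whose syntaxin takes part in resistance to fungal entry, *NHL3* (1.27) and the calcium-dependent kinase gene *CPK28* (1.08) were also higher. Receptor genes of the pathway were not called: *FLS2*, the flagellin receptor, measured 199 and 210 in WT and 370 and 282 in *yucca*, and *EFR*, the receptor of bacterial elongation factor Tu, 20.5 and 18.6 against 31.8 and 24.2. *EFR* was called higher when array medians were set equal (0.71). *PUB22*, a ubiquitin ligase gene that dampens the response, had the lowest log2 difference of the list, −0.63, and was not called. Of 10 *WRKY* genes, 4 were higher and none lower (5 and 1 at an unadjusted p under 0.05), with a median of 0.77. This list overlaps that of pattern-triggered immunity, with *WRKY40* in both, so their counts are not independent.

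Receptor-like kinases with extracellular cysteine-rich, lectin or pectin-binding domains gave 5 higher and 1 lower of 7, all named only through the paper's tables. *WAK1*, a kinase that binds cell wall pectin, measured 31.1 and 30.3 in WT against 269 and 256 in *yucca* (3.1 ± 0.16, adjusted p = 2.53e-06). *LECRK-IV.3* was higher by 2.29 and *CRK10* by 2.21, whereas *CRK21* ran the other way, from 176 and 167 in WT to 53.9 and 44.0 (−1.81 ± 0.11, adjusted p = 5.76e-06). The list thus moved in both directions, and without WT mock replicate 1 its count of higher members was 3.

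Genes of the defence hormones followed. For ethylene, *ACS6*, which encodes an ACC synthase of the rate-limiting step, rose from 55.6 and 50 to 384 and 396 (2.89 ± 0.20, adjusted p = 1.12e-05). Of 5 ethylene genes 2 were called higher and none lower, and all 5 were higher at an unadjusted p under 0.05; only 1 was called without WT mock replicate 1 or 2. All but 1 of the 5 were named only through the paper's tables. Among 11 *ERF* and *DREB* genes, which encode AP2-domain transcription factors, 6 were higher and 1 lower, with a median of 0.82, and 8 of the 11 were named only through those tables. *ERF6* rose from 52.1 and 42.4 to 511 and 506 (3.44 ± 0.28, adjusted p = 2.62e-05), ahead of *ERF98* (2.3), *ERF11* (1.86) and *ERF4* (1.42). *TINY* was the exception, at 217 and 177 in WT against 77.8 and 73.2 in *yucca* (−1.38 ± 0.17, adjusted p = 0.000228). Without WT mock replicate 1 or 2, 4 of the 11 were higher.

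For salicylic acid, 2 of 4 genes were higher and none lower (3 and 0 at an unadjusted p under 0.05). *GRX480*, a glutaredoxin gene induced by salicylic acid that restrains jasmonate genes, stood at 28.7 and 27.9 in WT and 213 and 201 in *yucca* (2.87 ± 0.19, adjusted p = 8.69e-06). Genes of jasmonate synthesis and response were higher in 3 and lower in 1 of 7. Of these 7, 5 were named only through the paper's tables. *ST2A*, for a sulfotransferase that acts on a hydroxylated jasmonate, rose from 43.7 and 40.5 to 306 and 243 (2.70 ± 0.12, adjusted p = 1.77e-06). *OPR2* rose from 717 and 687 to 4889 on both *yucca* arrays (2.80), though its probe set may also detect related genes. The repressor gene *JAZ3* fell by 0.85 on the log2 scale, and the jasmonate- and ethylene-responsive defensin gene *PDF1.2B* rose from 20.3 and 23.8 to 159 and 132 (2.72 ± 0.12, adjusted p = 1.77e-06), again on a probe set that may detect related genes. Other defensin-like genes differed in direction: *LCR69* rose from 1614 and 1890 to 4412 and 4786, and *LCR74* fell by 1.41 on the log2 scale. Of 16 genes of antimicrobial peptides and chitinases, 3 were higher and 1 lower by limma (4 and 5 at an unadjusted p under 0.05). Their median was 0.05, and 9 of the 16 measured under 25 in both genotypes. Without WT mock replicate 1, 2 were higher.

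**Figure D3:**
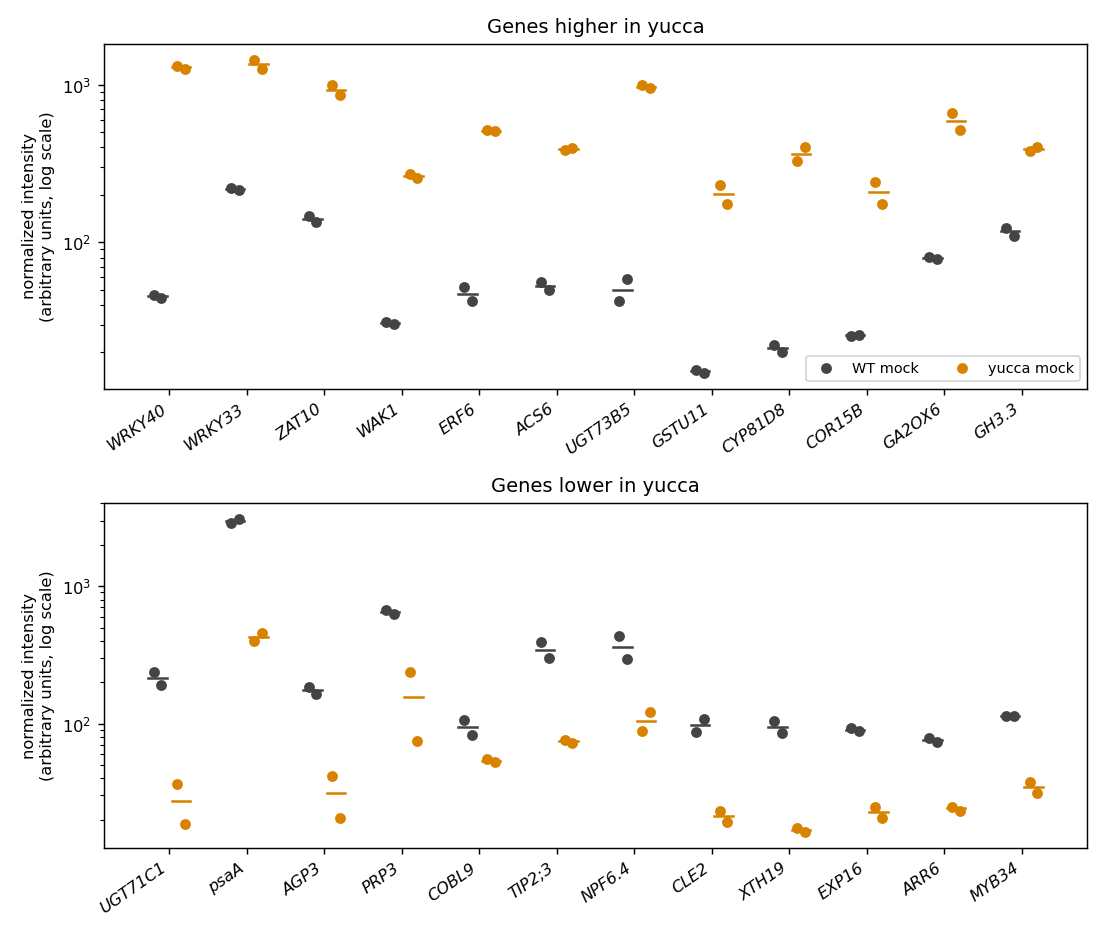
Normalized intensity (arbitrary units, log scale) of 24 genes on each WT mock array (grey) and each *yucca* mock array (orange), with the mean of each pair as a line. No pair of *yucca* points overlaps its WT pair, and the *yucca* points of *PRP3* (236 and 74.7) and *AGP3* (41.7 and 20.6) lie farther apart than those of the genes in the upper panel.

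Enzymes that modify foreign and secondary compounds formed a further group, and here members of the same family went in opposite directions. UDP-glycosyltransferases attach sugars to hormones, flavonoids and toxins, and 13 of 51 measured genes were higher and 5 lower, 35.3% called against 17.4% over all probe sets. None of these 51 was named through the paper's tables alone. *UGT73B5* rose from 42.1 and 58.2 to 986 and 950 (4.29 ± 0.23, adjusted p = 2.97e-06). Its close relatives *UGT73B4* (2.19) and *UGT73C1* (2.37) were higher too, as were *UGT87A2* (2.1) and *UGT84A3* (2.02). *UGT71C1* went from 237 and 190 down to 36.5 and 18.6 (−3.03 ± 0.27, adjusted p = 3.97e-05). The WT and *yucca* arrays of these genes did not overlap in either direction, as was so for 72.9% of all probe sets. With BL the difference of *UGT73B4* was 0.01, and this change between treatments was not called.

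Glutathione S-transferases, which couple glutathione to reactive compounds, had 3 higher and 5 lower of 15. *GSTU11* rose from 15.5 and 14.8 to 231 and 176 (3.73 ± 0.31, adjusted p = 2.63e-05). *GSTU20* rose from 534 and 480 to 1452 and 1488 (1.54). The lower members were led by *GSTU26*, at 90.2 and 87.5 in WT against 20.4 and 16 (−2.3 ± 0.22, adjusted p = 6.75e-05), followed by *GSTU28* (−1.43). Without one mock array at a time 2 were higher, and 3, 3, 6 and 4 were lower without WT mock replicate 1 and 2 and *yucca* mock replicate 1 and 2. Cytochrome P450s, oxidases of many pathways, had 7 higher and 5 lower of 42 (28.6% called against 17.4% over all probe sets). *CYP81D8* rose from 22.3 and 20.1 to 326 and 404 (4.10 ± 0.18, adjusted p = 1.77e-06), *CYP89A2* by 2.35 and *CYP86A2*, an enzyme of cutin synthesis, by 1.26, while *CYP71B37* fell by 1.59. Of the 42, 20 were named only through the paper's tables. Without WT mock replicate 1, 4 of the 42 were higher.

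Indole glucosinolates are defence compounds made from tryptophan, and 2 of 6 genes of their synthesis and of camalexin were lower, with none higher by limma (3 lower and 0 higher at an unadjusted p under 0.05). *MYB34*, the activator of this pathway, fell from 114 and 113 to 37.7 and 31.1 (−1.73 ± 0.11, adjusted p = 6.84e-06). *CYP79B2*, which converts tryptophan to an oxime shared by these compounds and an auxin route, fell from 332 and 315 to 173 and 149 (−1.01 ± 0.10, adjusted p = 9.48e-05). *MYB34* and *CYP79B2* were among the 4 of these 6 genes that were named only through the paper's tables. *BGLU23*, the abundant glucosidase PYK10 of the endoplasmic reticulum, measured 4973 and 4428 in WT and 4584 and 4541 in *yucca*, with overlapping arrays. Of 22 β-glucosidases 2 were higher, led by *BGLU44* (1.34), and 2 lower, led by *BGLU46* (−1.34). This is 18.2% called, near the 17.4% over all probe sets, and 1 was higher without either WT mock replicate or *yucca* mock replicate 2.

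Genes of cold, drought and other stress differed in direction between lists. Of 10 genes of dehydration, cold and abscisic acid, 5 were higher and 1 lower, with a median of 0.49. *COR15B*, whose protein protects chloroplast membranes against freezing, rose from 25.6 and 25.8 to 242 and 174 (3.0 ± 0.33, adjusted p = 0.000133). *COR47* (1.05) and *RD2* (1.04) also rose. Without *yucca* mock replicate 1, or either WT mock replicate, 3 of the 10 were higher, and the lower member was called only with all arrays or without *yucca* mock replicate 1. Of 11 late embryogenesis abundant genes, a list that also holds the COR genes, 3 were higher and 3 lower (54.5% called against 17.4% over all probe sets). Their median was −0.11, and 1 was lower without either WT mock replicate. Calmodulin-like genes had 1 higher and 1 lower of 8 (25% called against 17.4% over all probe sets). Of 6 heat shock genes 2 were higher and none lower (3 and 0 at an unadjusted p under 0.05): the chaperone gene *HSP70* measured 175 and 181 in WT against 966 and 885 in *yucca* (2.38 ± 0.21, adjusted p = 3.85e-05), and *HSP70-2* was higher by 1.47. Hypoxia genes split, since *PDC2*, the fermentation enzyme pyruvate decarboxylase, rose from 202 and 207 to 767 and 688 (1.83 ± 0.09, adjusted p = 2.45e-06), whereas the low-oxygen marker *LBD41* fell from 658 and 643 to 183 and 108 (−2.21 ± 0.22, adjusted p = 8.19e-05). The arrays of the genotypes did not overlap for either gene, as was so for 72.9% of all probe sets.

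Auxin-responsive families had members called in both directions, at 57.1% of *GH3*, 28.6% of *SAUR* and 20% of *Aux/IAA* genes against 17.4% of all probe sets. *GH3.3* measured 124 and 110 in WT and 379 and 399 in *yucca* (1.74 ± 0.18, adjusted p = 9.11e-05), both *yucca* arrays being about 3-fold above both WT arrays. *GH3.5* was higher by 0.83, from 798 and 681 to 1309 and 1307. *GH3.6*, with 882 and 781 in WT against 1162 and 1358, and *GH3.17*, with 165 and 169 against 211 and 231, were not called. *GH3.4* (−0.95), on a probe set that may detect related genes, and *GH3.1* (−0.64) were lower. Of 7 *GH3* genes, 2 were thus higher and 2 lower, but the call of *GH3.5* was lost without WT mock replicate 2 (log2 difference 0.71) and without *yucca* mock replicate 1 or 2 (0.83 each), that of *GH3.1* without any mock array (−0.61, −0.67, −0.64 and −0.64 without WT mock replicate 1 and 2 and *yucca* mock replicate 1 and 2), and that of *GH3.4* without WT mock replicate 1 or 2 (−0.97 and −0.93) or *yucca* mock replicate 2 (−0.78).

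Of 20 *Aux/IAA* genes, 1 was higher and 3 were lower, and 13 of the 20 were named only through the paper's tables. *IAA7*, known from the auxin-resistant *axr2* mutant, rose from 1632 and 1576 to 2642 and 2910 (0.79 ± 0.09, adjusted p = 0.000148). *IAA11* fell from 103 and 111 to 56.5 and 48.5 (−1.03 ± 0.11, adjusted p = 9.76e-05). *IAA13* (−0.60) and *IAA20* (−0.73) were called lower with all arrays but not without any one mock array, with log2 differences from −0.62 to −0.58 and from −0.81 to −0.66. *IAA1*, which measured 128 and 110 in WT against 241 and 334, and *IAA5*, with 20.8 and 19.0 against 35.8 and 44.6, had the largest positive differences of the family (1.26 and 1.01). Neither was called in the fit of all arrays, but both were called higher in a fit of the 4 mock arrays alone (adjusted p = 0.00119 and 0.00116, limma), and *IAA1* also without *yucca* mock replicate 1 (1.495).

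*SAUR* genes had 3 higher and 5 lower of 28, with a median of −0.28, and 25 of the 28 were named only through the paper's tables. *SAUR9* rose from 22.8 and 19.0 to 93.2 and 78.8 (2.04 ± 0.14, adjusted p = 1.09e-05), *SAUR1* from 217 and 238 to 593 and 600 (1.39 ± 0.09, adjusted p = 7.49e-06), and *SAUR12* from 33.9 on both arrays to 66.5 and 78.5 (1.09). The count of higher members stayed at 3 without any mock array, and that of lower members was 0, 4, 8 and 2 without WT mock replicate 1 and 2 and *yucca* mock replicate 1 and 2. None of 6 genes of auxin transport was called by limma (2 higher and 0 lower at an unadjusted p under 0.05). *PIN3*, an auxin efflux carrier gene, measured 916 and 766 in WT and 1044 and 982 in *yucca*. *LBD16* and *LBD29*, which act in lateral root initiation, stood at 39.6 and 35.8 against 33.8 and 41.4, and at 14.7 and 18.6 against 21.5 and 19.2, and neither was called.

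Among genes of other growth hormones, those of BR and cytokinin were called only in the lower direction. Of 14 BR genes 4 were lower and none higher by limma (6 lower and 1 higher at an unadjusted p under 0.05), with a median of −0.28, and 4 were called lower without any one mock array too. Of the 14, 13 were named only through the paper's tables. *BEH1* and *BEH2*, which encode close homologs of the BR transcription factor BZR1, went from 289 and 299 to 131 and 95.7 (−1.39 ± 0.14, adjusted p = 7.1e-05) and from 340 and 348 to 172 and 165 (−1.03 ± 0.12, adjusted p = 0.000226). *ROT3*, a P450 gene of BR synthesis (−1.08), and *BAS1*, a P450 gene of BR inactivation (−1.04), were also lower, so that synthesis and breakdown genes both fell. The BR receptor gene *BRI1* measured 928 and 993 in WT against 743 and 705, the synthesis gene *DWF4* 122 and 135 against 109 and 89.9, and *CPD* 1996 and 2031 against 2058 and 1701, and none of these was called. *BEE1*, a growth-promoting bHLH gene named for its rise with BR, was higher, at 105 and 93.2 in WT against 282 and 272 (1.49 ± 0.13, adjusted p = 3.43e-05), and so was *IBH1*, whose product opposes such bHLH proteins (155 and 149 against 452 and 365, 1.42). The related *BEE2* was lower, at 769 and 694 in WT against 426 and 408 (−0.81 ± 0.10, adjusted p = 0.000329), a call lost without WT mock replicate 1 (−0.73).

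Cytokinin acts through phosphorelay and induces A-type response regulators. *ARR6* fell from 79.1 and 73.0 to 24.9 and 23.3 (−1.66 ± 0.09, adjusted p = 4e-06) and *ARR3* from 39.1 and 37.7 to 14.4 and 15 (−1.39 ± 0.09, adjusted p = 7.01e-06), each without overlap between the genotypes. *ARR7* overlapped, with 168 and 139 against 122 and 141. Of 7 cytokinin genes these 2 were lower and none was higher by limma (3 lower and 2 higher at an unadjusted p under 0.05). Of the 7, 5 were named only through the paper's tables, *ARR6* and *ARR3* among them. For gibberellin the inactivating enzyme gene *GA2OX6* rose from 81.1 and 78.5 to 657 and 515 (2.87 ± 0.16, adjusted p = 4.12e-06), and *GA20OX2*, of gibberellin synthesis, rose from 22.2 and 20.8 to 39.0 and 47.1 (0.99 ± 0.11, adjusted p = 0.000146). The other 6 gibberellin genes were not called. The cyclin gene *CYCB1;4*, of mitotic cells, was higher by 1.09.

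Cell wall genes changed in both directions. Expansins loosen walls, and 2 of 22 were higher and 5 lower (31.8% called against 17.4% over all probe sets), with a median of −0.13. *EXP16* fell from 92.2 and 88.8 to 24.5 and 20.6 (−2.01 ± 0.10, adjusted p = 2.65e-06), *EXPB1* from 64.8 and 53.4 to 16.5 and 18.7 (−1.75 ± 0.15, adjusted p = 3.43e-05), and *EXP9* from 324 and 311 to 137 and 146 (−1.17). *EXLB1*, of the expansin-like class, rose from 152 and 143 to 309 and 358 (1.18 ± 0.10, adjusted p = 3.84e-05). Without WT mock replicate 1 or 2, 3 of the 22 were lower, and without WT mock replicate 2 or *yucca* mock replicate 1, 1 was higher.

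XTH enzymes cut and rejoin xyloglucan, and 2 of 15 genes were higher and 3 lower (33.3% called against 17.4% over all probe sets). *XTH22*, the touch-inducible *TCH4* gene, rose from 867 and 723 to 2326 and 1949 (1.43 ± 0.14, adjusted p = 8.19e-05) and *XTH24* from 1403 and 1362 to 3890 and 3018 (1.31 ± 0.14, adjusted p = 9.85e-05). *XTH19* fell from 105 and 85.7 to 17.3 and 16.2 (−2.50 ± 0.11, adjusted p = 1.93e-06), and *XTH21* from 24.4 and 24.3 to 11.5 and 10.9 (−1.12). The arrays of these 4 genes did not overlap between the genotypes, as was so for 72.9% of all probe sets. The pectin methylesterase gene listed as *ATPMEPCRD* was higher by 1.67. Of 17 subtilase and SKU5-like genes 4 were higher and 4 lower, and the number higher was 1 without either WT mock replicate and 2 without *yucca* mock replicate 2. The subtilisin-like protease gene *SBT3.5* was higher (0.72). The subtilisin-like protease genes *SBT4.12* (−1.78) and *SBT5.2* (−1.71), *SKS15* (−2.39) and *TBL21* (−1.66), of a family of wall polysaccharide acetylation, were lower. Among signalling peptides, *CLE2* fell from 86.2 and 108 to 23.1 and 19.1 (−2.20 ± 0.15, adjusted p = 9.56e-06) and *RALF23* from 587 and 553 to 311 and 297 (−0.91).

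Of the root lists, those of root hairs and aquaporins had the lowest medians in *yucca*. The median was also low for phosphate starvation (−0.86, none of 2 called) and for iron, zinc and copper (−0.41, 1 higher and 1 lower of 7). It was −0.37 for root epidermal patterning, with 1 lower of 2 and both under 25 in both genotypes. The other root lists did not share one direction. Root hairs are outgrowths of single epidermal cells whose walls carry a specific set of proteins, and of 9 root hair genes 3 were lower and none higher by limma (7 lower and 0 higher at an unadjusted p under 0.05), with a median log2 difference of −1.36, and 5 of the 9 were named only through the paper's tables. Summed over the 9, the intensity in WT without BL came to 2308 and 2104 and in *yucca* without BL to 1303 and 755. The lowest level of any member, over the arrays with and without BL, was 14.3. The lowest value of the common distribution was 5.54. In RNA of whole seedlings, fewer cells of a type and less RNA per cell cannot be told apart.

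*AGP3*, which encodes an arabinogalactan protein, measured 184 and 165 in WT and 41.7 and 20.6 in *yucca* (−2.57 ± 0.33, adjusted p = 0.000297). *COBL9*, needed for the polar growth of hairs, measured 106 and 82.9 against 54.8 and 52.7 (−0.81 ± 0.12, adjusted p = 0.000885), and *XTH26* 42.7 and 41.2 against 17.3 and 15.4 (−1.36 ± 0.21, adjusted p = 0.000929). These 3 were called and did not overlap. *PRP3*, a proline-rich wall protein gene of root hairs, stood at 672 and 623 in WT against 236 and 74.7 in *yucca*, *RHS13* at 521 and 443 against 279 and 108, and the hair expansin gene *EXPA18* at 143 and 112 against 58.6 and 32.7. All 3 were below WT on both *yucca* arrays, but they were not called, and *EXPA7* was not called either. Replicate 2 was the lower mock array for each of the 9 genes in *yucca* and for 8 of the 9 in WT.

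The root hair calls depended on single arrays. Leaving out WT mock replicate 1 or 2 gave 0 and 2 called lower, and leaving out *yucca* mock replicate 1 or 2 gave 4 and 1. *AGP3* lost its call without WT mock replicate 1 (−2.50), *COBL9* without WT mock replicate 1 (−0.63) or either *yucca* mock replicate (−0.83 and −0.78), and *XTH26* without any one mock array (−1.45 to −1.28). *PRP3* (−3.12), *RHS13* (−2.15) and *EXPA18* (−1.95) were called without *yucca* mock replicate 1, and *EXPA18* also when array medians were set equal (−1.51).

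Both aquaporins measured, the vacuolar *TIP2;3* and the plasma membrane channel gene *PIP2F*, fell, from 391 and 299 to 76.1 and 72.5 (−2.20 ± 0.21, adjusted p = 5.93e-05) and from 690 and 559 to 152 and 130 (−2.14 ± 0.13, adjusted p = 4.95e-06). Both aquaporin genes were named only through the paper's tables. *NPF6.4*, a nitrate transporter gene, fell from 433 and 295 to 87.9 and 121 (−1.79 ± 0.21, adjusted p = 0.000169), and *NPF2.11*, whose product also carries glucosinolates, from 516 and 489 to 271 and 215 (−1.06). The *yucca* arrays were below the WT arrays for all 4 of these genes, as was so for 37.7% of all probe sets. The list of nitrate and ammonium uptake as a whole had 2 higher and 2 lower of 15 (26.7% called against 17.4% over all probe sets), with a median of −0.03. Its higher members were *NPF4.3*, from 101 and 103 to 215 and 230 (1.13), and *NPF1.2*, from 1332 and 1446 to 2303 and 2114 (0.67). The call of *NPF4.3* was lost without WT mock replicate 1 (1.11) or 2 (1.14) or *yucca* mock replicate 2 (1.08), and that of *NPF1.2* without WT mock replicate 1 (0.61) or 2 (0.73) or *yucca* mock replicate 1 (0.61). Of 7 genes of endodermis, stele and root tip 2 were lower and none higher by limma (3 and 1 at an unadjusted p under 0.05), with a median of −0.04, and none was called without either WT mock replicate. *PHO1*, which loads phosphate into the xylem, measured 348 and 384 in WT against 426 and 427 in *yucca* and was not called. Among arabinogalactan and extensin proteins 2 of 17 were higher and 6 lower, with *AGP17* falling from 262 and 237 to 87.4 and 93.2 (−1.47 ± 0.10, adjusted p = 1.05e-05), all of them named only through the paper's tables. Without WT mock replicate 1, 1 was higher and 1 lower, and without WT mock replicate 2, 1 was higher. Of 8 class III peroxidases 2 were higher and 1 lower, and none was lower without either WT mock replicate; the gene *PA2* of this family rose from 17.7 and 14.6 to 61.8 and 53.0 (1.83). Among carriers, the cation exchanger gene *CAX7* was higher (1.82), and the potassium carrier gene *KUP8* (−1.01) and the ABC transporter gene *ABCG35* (−1.67) were lower.

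Photosynthesis gave different results for genes of the nucleus and of the chloroplast. The chloroplast keeps a genome of its own that encodes part of the photosystems, the ATP synthase, the NDH complex and the ribosome, whereas antenna and Calvin cycle proteins are mostly encoded in the nucleus. Of 69 chloroplast-encoded genes measured, 24 were lower and 3 higher, 39.1% called against 17.4% over all probe sets, with a median log2 difference of −0.38, and 50 of the 69 differences were below 0. Lower genes numbered 15 and 13 with WT mock replicate 1 or 2 left out, and 16 and 13 with *yucca* mock replicate 1 or 2 left out, and the count of higher genes was 0, 1, 1 and 1 in the same order. Genes of a chloroplast operon share transcripts and are not independent.

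All 6 measured *atp* genes, for subunits of the ATP synthase, were lower, with a median of −1.05. *atpF* fell from 1809 and 1791 to 384 on both *yucca* arrays (−2.23 ± 0.09, adjusted p = 1.77e-06), and *atpA* from 6162 and 6229 to 2644 and 1923 (−1.46 ± 0.16, adjusted p = 0.00012). Of photosystem I genes 3 of 5 were lower, led by *psaA*, which encodes a core protein of the reaction centre. It fell from 2890 and 3092 to 400 and 458 (−2.80 ± 0.21, adjusted p = 1.73e-05). Of photosystem II genes 6 of 15 were lower and 1 higher, with *psbA*, the gene of the D1 protein, at 2600 and 3959 in WT against 1530 and 1343 (−1.16 ± 0.19, adjusted p = 0.00117). The call of *psbA* was lost without WT mock replicate 2 (−0.86) and without *yucca* mock replicate 1 (−1.26) or 2 (−1.07).

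Other groups of chloroplast genes, formed by gene name, differed. Of 8 genes of the small ribosomal subunit 3 were lower, among them *rps19*, from 2089 and 1875 to 303 and 519 (−2.32 ± 0.22, adjusted p = 6.37e-05), and *rps4*, from 5575 and 6130 to 2004 and 1692 (−1.67 ± 0.12, adjusted p = 1.38e-05). None of 7 genes of the large subunit was called, with a median of 0.30, and of 6 *pet* genes, for the cytochrome complex between the photosystems, 1 was higher and none lower. *petD* rose from 119 and 133 to 303 and 341 (1.35 ± 0.17, adjusted p = 0.000299), *ndhG* from 458 and 477 to 992 and 1081 (1.15 ± 0.18, adjusted p = 0.000994) and *psbJ* from 835 and 724 to 1246 and 1175 (0.64 ± 0.11, adjusted p = 0.00144). The arrays did not overlap for these 3, yet *petD* was not called without WT mock replicate 1 (1.27), and *ndhG* (1.09 to 1.21) and *psbJ* (0.53 to 0.74) were not called without any one mock array.

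**Figure D4:**
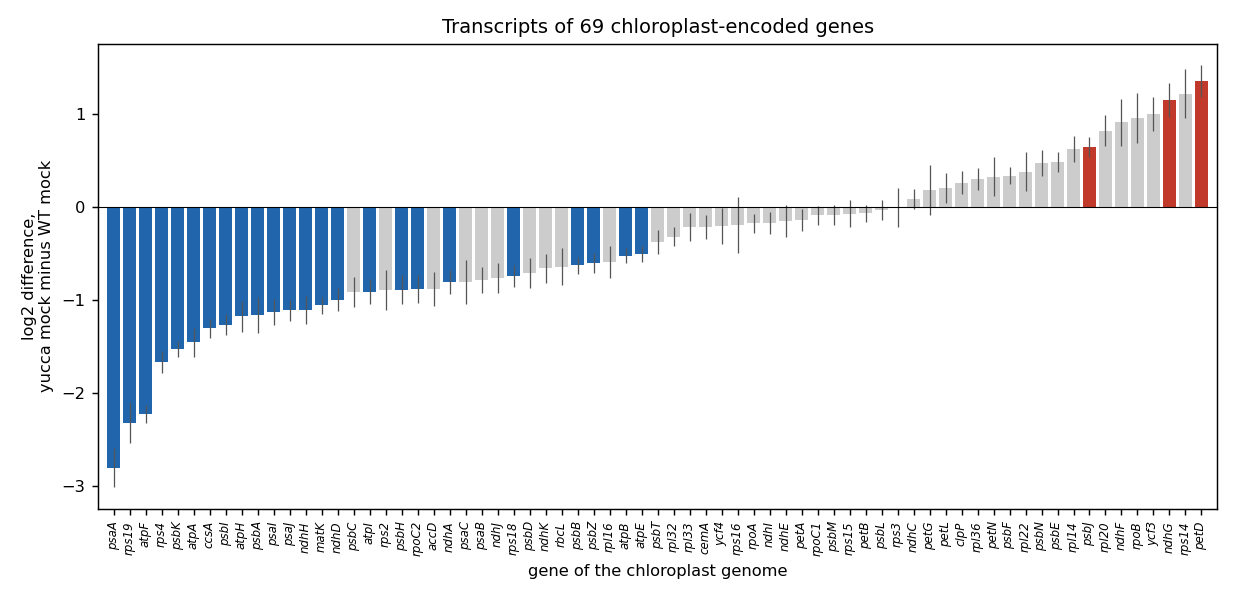
Log2 difference, *yucca* mock minus WT mock, of 69 chloroplast-encoded genes in rising order, as bars with the standard error, with 24 called lower in blue, 3 called higher in red and the others in grey. The difference runs from −2.80 for *psaA* to 1.35 for *petD*.

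Nuclear genes of photosynthesis gave 1 call. *RCA*, the gene of Rubisco activase and the only leaf marker measured here, lay at the top ranks of every array (12010 is the highest value the common distribution allows), so a rise could not show and no difference is read from it. None of 4 genes of carbon fixation was called by limma (0 higher and 1 lower at an unadjusted p under 0.05), and *RCA* is 1 of these 4. *PRK*, phosphoribulokinase, measured 4855 and 4593 in WT and 4014 and 4068 in *yucca*. Of 9 genes of chlorophyll synthesis none was called (3 higher and 2 lower at an unadjusted p under 0.05), with *CHLI2* at 521 and 522 against 369 and 471 and *HEMB1* at 855 and 967 against 1157 and 1288. Of 7 nuclear photosystem genes 1 was lower and none higher (3 and 1 at an unadjusted p under 0.05), the antenna gene *LHCB4.2*, at 6677 and 6976 in WT against 4809 and 4873 (−0.50 ± 0.08, adjusted p = 0.00146), and this call was lost without any one mock array (−0.53 to −0.46) and when array medians were set equal (−0.21).

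Nuclear genes that serve organelle RNA were lower in part. In the list of organelle RNA editing and NDH assembly 6 of 21 were lower and none higher by limma (13 lower and 2 higher at an unadjusted p under 0.05), with a median of −0.35. *CRR21*, a pentatricopeptide repeat protein gene for editing of a chloroplast *ndh* transcript, fell from 69.0 and 78.0 to 28.2 and 25.9 (−1.44 ± 0.10, adjusted p = 1.35e-05). With WT mock replicate 2 left out, 3 were lower. Of 16 genes of the mitochondrial genome 3 were lower and 1 higher, but without WT mock replicate 2 only 1 was lower and none higher, without WT mock replicate 1 none was higher, and without *yucca* mock replicate 2 only 1 was lower.

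In central metabolism the lists differed. None of 15 genes of the tricarboxylic acid cycle (4 higher and 2 lower at an unadjusted p under 0.05) and none of 7 genes of nitrogen assimilation (3 and 0) was called by limma, though 1 gene of the cycle was lower without *yucca* mock replicate 1. Of 16 starch and sugar genes 4 were higher and 1 lower (31.2% called against 17.4% of all probe sets), led by *DPE1*, an enzyme gene of starch breakdown, from 50.3 and 54.9 to 108 and 129 (1.17 ± 0.12, adjusted p = 7.73e-05), and the number higher was 2 without either WT mock replicate or *yucca* mock replicate 2, while the number lower was 0 without either WT mock replicate and 2 without *yucca* mock replicate 2. Sulfate reduction had 2 of 4 higher and none lower (3 and 1 at an unadjusted p under 0.05), with *APR1*, the reductase gene that controls the pathway, rising from 51.4 and 51.8 to 201 and 160 (1.80 ± 0.15, adjusted p = 3.43e-05). *TT5*, the chalcone isomerase gene of flavonoid synthesis, rose from 87.4 and 80.5 to 171 and 174 (1.04), and the carboxypeptidase-like gene *SCPL35* by 1.56.

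Transcription factors outside the defence families also differed. Of 9 *NAC* genes, 8 of them named only through the paper's tables, 3 were higher and none lower (6 and 0 at an unadjusted p under 0.05), with *NAC102* rising from 427 and 411 to 2917 and 2526 (2.70 ± 0.20, adjusted p = 1.67e-05) and *NAC062*, which is bound to membranes, by 1.44. Of 9 *MYB* genes, all named only through the paper's tables, 3 were higher and 5 lower, with *MYB30*, a regulator of defence-related cell death, higher by 1.12, and the number lower was 3 and 2 without WT mock replicate 1 and 2. Of 22 *bZIP* genes 3 were higher, led by *BZIP52* (1.23), and 3 lower, led by *BZIP34* (−1.39), 27.3% called against 17.4% over all probe sets. None of 40 *AGAMOUS-like* genes of the MADS box family was called by limma, and 32 of them measured under 25 in both genotypes. At an unadjusted p under 0.05, 9 of the 40 were higher and 10 lower, against 5797 and 6209 of all 22746 probe sets. Of the 40, 4 were called higher when array medians were set equal, 1 higher and 1 lower without *yucca* mock replicate 1, and 1 higher without *yucca* mock replicate 2.

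The genotype difference was also read on the 4 BL-treated arrays, whose levels did not enter the mock differences, though they entered the common normalization and the estimate of the spread and came from the same separate runs. Of the 1948 probe sets higher without BL, 1937 (99.4%, against 84.9% of all with a difference above 0) kept that sign with BL and 1381 (against 8.26% over all probe sets) were called higher there. Of the 2000 lower without BL, 1994 (99.7%, against 84.4%) kept that sign with BL and 1489 (against 8.56%) were called lower. Among the 120 named genes called higher, 92 were called higher with BL, and among the 113 called lower, 84 were called lower. *WRKY40* was higher by 4.06 with BL, *WAK1* by 3.43, *NAC102* by 2.93 and *GH3.3* by 2.07, and the lower genes *psaA* (−2.42), *atpF* (−2.21) and *PIP2F* (−2.05) were lower there too. A change of the genotype difference with BL was called for 10 of the 22746 probe sets (0.044%). Among them were *XTH19*, whose WT excess was absent with BL, and *EXL4*, of the EXORDIUM-like family, which was higher in *yucca* without BL and lower with it. With 2 arrays a group, a change that was not called may still be present. *UGT73B4* went from 2.19 without BL to 0.01 with it, and *IBH1* from 1.42 to 0.40, without such a call. For named genes called without BL, the median ratio of the difference with BL to that without was 0.85.

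**Figure D5:**
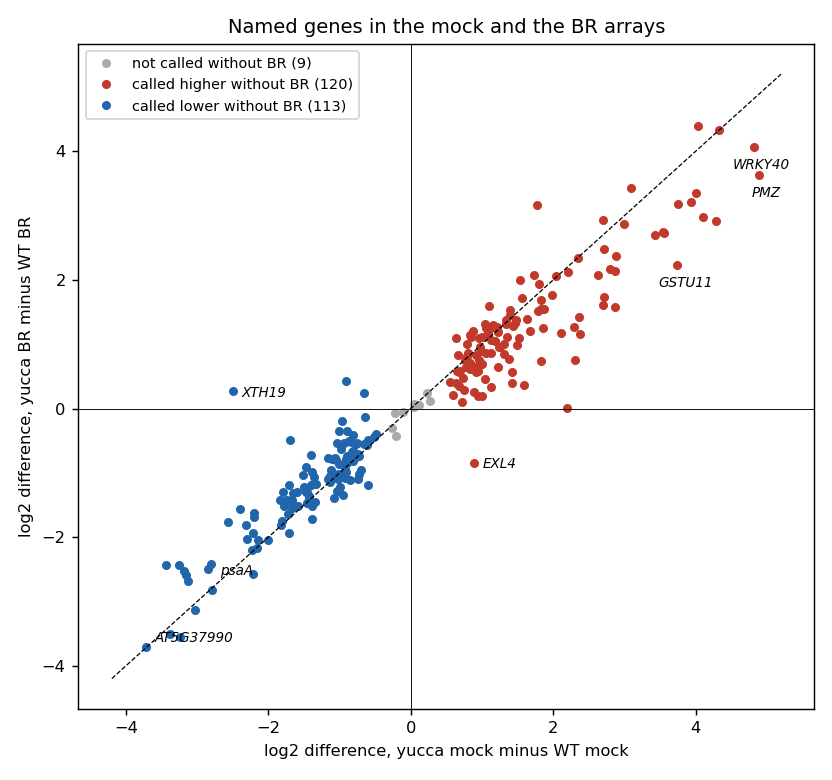
Log2 difference between *yucca* and WT without BL (horizontal) and with BL (vertical) for 242 named genes, with 120 called higher without BL in red, 113 called lower in blue, 9 not called in grey and the line of equal differences dashed. Most points lie along the line, and *XTH19* and *EXL4* lie off it.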

How the data were processed

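RNA of WT and *yucca* seedlings was measured on 8 ATH1 arrays, 2 for each of 4 groups, which the paper counts as 2 independent biological replicates. A p-value thus rests on how far the 2 arrays of a group differ, pooled over all 4 groups, those with BL included. This spread (4 residual degrees of freedom) was moderated by that of other probe sets, which gave 8.99 degrees of freedom in all. The small number of arrays limits the precision. The deposited values are intensities on a linear scale in arbitrary units, which the authors made with rma (background correction, quantile normalization and summary of the probes of each probe set), and equal values between arrays show that each genotype was normalized alone. The 64 control probe sets were left out. The log2 values were quantile-normalized over all 8 arrays and 1 mean per group was estimated over all 8 (R 4.3.3; limma 3.58.1) with empirical Bayes moderation (assumed proportion of changed genes 0.01). Calls needed a Benjamini-Hochberg adjusted p, over 22746 probe sets, below 0.10 and B above 0. Differences are *yucca* minus WT with their standard error.

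Probe sets were named from the platform annotation, through RefSeq loci (13436 with a locus and 77 without), or from annotation columns of the paper's tables (482), while 503 stood for several genes and 8248 had none named here. Where both sources named a probe set, 436 of 442 loci were the same. A gene with several probe sets was read from the brightest. The members and lists were chosen with earlier results of these data known, and 26 lists of families were added after the deposited files were opened. Lists were described and not tested. Named genes were the 12 largest called differences in each direction at a level of at least 100, up to 4 called members of each list in each direction, the brightest member of lists without a call, and *GH3.3* and *BEE1*. The text prints those whose call was kept without any one mock array, or says otherwise, and gives uncalled genes and members of the root hair, *GH3*, *Aux/IAA*, BR and chloroplast lists as their role required, chosen after their values were seen. The fit was tested on simulated data. The paper's columns of fold changes were not used. Alternatives concerned the normalization, the arrays in the fit, a replicate block, the criteria, the variance model, an offset of 16, a filter at 50 and each array left out, and counts in lists without single arrays were added after seeing the data.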

Additional observations from a re-analysis of the deposited data

Results flagged for a closer look

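The genotype difference of *XTH19* differed between the treatments by a test of that difference. It was −2.50 on the log2 scale without BL and 0.27 with BL, a change of 2.77 (adjusted p = 0.000723 over all probe sets, limma). The level was 105 and 85.7 in WT mock, 17.3 and 16.2 in *yucca* mock, 375 and 357 in WT with BL and 423 and 458 in *yucca* with BL. *EXL4* was higher in *yucca* without BL (0.89) and lower with BL (−0.84), a change of −1.73 (adjusted p = 0.0204). Its arrays did not overlap in either treatment, but its call without BL was lost without WT mock replicate 1 (0.91) or 2 (0.87). *GH3.17* was above WT on both *yucca* arrays without BL and below WT on both with BL, a change of −0.86, which was not called (adjusted p = 0.185).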

How the results depend on the processing

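The counts of 1948 higher and 2000 lower moved by more than 1.5 times under these settings. They were 265 and 15356 on the values as deposited, 5885 and 6289 with no B criterion, and 880 and 845 with an at least 2-fold difference. With a mean intensity of at least 50, 1297 were lower. With each array left out in turn they ranged from 1137 to 1880 higher and from 1055 to 1901 lower. The settings with array medians set equal, the 4 mock arrays alone (in the normalization or in the fit), an adjusted p under 0.05, an intensity trend or 16 added before log2 stayed within 1.5 times. The replicate numbers are shared by name only (correlation of the deviations of same-numbered mock arrays −0.05), and a replicate block gave 1913 higher and 1968 lower, of which 1798 and 1823 were also called without it; of the genes in the text it lost *GH3.1*, *IAA20* and *LHCB4.2* and added *PRP3*, *EXPA18* and *EXPA7*. On the values as deposited the sign turned for 7 genes of the text that were called on neither scale. Of genes called on either scale, it turned for *GH3.5* (−0.11), *IAA7* (−0.10), *PIN3* (−0.67), *EXL4* (−0.061), *PHO1* (−0.75), *psbJ* (−0.29), *NPF1.2* (−0.22), *SBT3.5* (−0.21) and *RCA* (−0.62), where the median of all probe sets was −0.87. The cause of these changes was not tested beyond that shift. A mean under 25 limits what can be called, since 5.44% of such probe sets were.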
